A study of Mus musculus with 4 samples.

Results

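The oligodendrocyte lineage transcription factors are 10 genes, Olig1, Olig2, Sox10, Myrf, Nkx2-2, Nkx6-2, Tcf7l2, Zfp488, Sox8 and Sox6, of 27033 genes named on the array. They were chosen by name, as every non-control probe whose gene symbol in the scanner files is that of a member, which gave 19 of 56605 probes. The 4 samples were transgenic brainstem/cerebellum, wild-type brainstem/cerebellum, transgenic spinal cord and wild-type spinal cord, each total RNA from mice aged 24 weeks and each hybridised to 1 Agilent array in 1 colour. All 4 groups share a strain background labelled C57BL/6, 129 and C3H. The series title calls the transgenic animals MSA Tg mice and the sample titles carry the letters PLP, while the labels name neither the transgene nor the promoter that drives it. Whether RNA was pooled over animals is not in the labels, and the source field reads brain for the spinal cord samples, whose tissue label is spinal cord. The 2 questions are how the factors differ between genotypes in each tissue and how they differ between the tissues.

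Oligodendrocytes, the myelin-forming cells of the central nervous system, arise from precursors that keep dividing in the adult brain and spinal cord. A small network of DNA-binding proteins drives each step: Olig2, Nkx2-2 and Sox10 set and keep the lineage, Sox6 and its relatives hold precursors back, and Tcf7l2, Zfp488, Sox10 and Myrf take part in the turn to myelin gene expression. Myrf is tethered to a membrane, cuts itself and then enters the nucleus, and it is induced by Sox10. In whole tissue, fewer cells of a type and less RNA per cell cannot be told apart.

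The results on genotype turn on a few probes, so the sequences they carry are shown here as the array has them, 5′ to 3′. Tcf7l2, on chromosome 19, had 4 probes, given in genomic order with their mm9 coordinates on the plus strand. Of these, probe 1 lies near the start of the coding sequence, probe 2 in its middle and probe 3 in the part that encodes the DNA-binding HMG box, while the files annotate neither exon nor UTR. Of probe 4 the first 30 bases are shown.
Tcf7l2 probe 1, chr19:55817272-55817331: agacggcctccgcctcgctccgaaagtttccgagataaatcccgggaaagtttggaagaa
Tcf7l2 probe 2, chr19:55982975-55983034: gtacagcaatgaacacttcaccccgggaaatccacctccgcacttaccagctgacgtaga
Tcf7l2 probe 3, chr19:55994029-55994088: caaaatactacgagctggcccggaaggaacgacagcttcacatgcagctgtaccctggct
Tcf7l2 probe 4, chr19:56007586-56007645: gatttgtatgtagttttaatgtcacctata
The first 30 bases of the probes that stand for Olig2, Sox10, Nkx2-2 and Nkx6-2 follow, because these factors differed most in spinal cord besides Tcf7l2. The mapped stretch of the Nkx2-2 probe in the files covers 25 of its 60 bases.
Olig2, chr16:91228470-91228529, plus strand: aagaacaacatcaaaaagttgctgtgaata
Sox10, chr15:78985343-78985402, minus strand: ttgcattaagcactccaagtaatataatca
Nkx2-2, chr2:147008888-147008912, minus strand: tacacgttctgacaactggtggcaaatttc
Nkx6-2, chr7:146767130-146767189, minus strand: cggggtttgggccgatcactttgtataatc

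The sequence before the transcription start was at hand for 7 of the 10 factors, in 13 windows from RefSeq with GRCm38.p6 coordinates, of which the 250 bases before the start were read. Each window was searched on both strands for CAGCTG, an E-box form that Olig proteins can bind, for the SOX motifs ACAAAG and ACAATG, and for the TCF motif TCAAAG. Of 32851 mouse windows of that length, 13% held CAGCTG, 16.5% ACAAAG, 10.7% ACAATG and 13.8% TCAAAG. The windows of Nkx2-2, Nkx6-2 and Olig2 are shown because the first pair was higher and the last lower in transgenic spinal cord, with a motif match in capitals.
Nkx2-2 upstream, minus strand, chr2:147186403-147186652: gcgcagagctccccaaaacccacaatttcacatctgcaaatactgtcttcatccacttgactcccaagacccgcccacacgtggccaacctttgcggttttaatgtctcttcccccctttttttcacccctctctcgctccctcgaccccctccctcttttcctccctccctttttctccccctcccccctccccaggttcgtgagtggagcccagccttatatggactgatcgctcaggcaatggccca
Nkx6-2 upstream, minus strand, chr7:139582798-139583047: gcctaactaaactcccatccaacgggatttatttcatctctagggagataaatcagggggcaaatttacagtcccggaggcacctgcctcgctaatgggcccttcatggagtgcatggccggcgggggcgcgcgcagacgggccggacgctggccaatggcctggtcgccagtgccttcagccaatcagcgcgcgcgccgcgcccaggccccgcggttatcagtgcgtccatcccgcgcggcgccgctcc
Olig2 upstream, plus strand, chr16:91225300-91225549: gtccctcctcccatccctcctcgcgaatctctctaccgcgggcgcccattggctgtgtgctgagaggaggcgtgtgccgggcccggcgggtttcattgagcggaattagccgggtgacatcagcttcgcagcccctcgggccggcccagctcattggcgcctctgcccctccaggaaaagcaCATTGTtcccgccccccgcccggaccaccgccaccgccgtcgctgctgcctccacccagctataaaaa
The Olig2 window held 1 match, ACAATG on the opposite strand 68 bases before the start, and those of Nkx2-2, Nkx6-2, Zfp488 and Sox8 held none of the 4 motifs. Sox6 had 6 windows, each with at least 1 match and 15 matches in all, among them the 1 CAGCTG found for the factors. For Tcf7l2, 1 window held ACAATG 245 and 103 bases before its start and the other ACAAAG 14 bases before its start. A match is a string of letters and no binding was measured.

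Levels below are log2 processed signals with the 75th percentile of their array subtracted, so a level of 0 is the 75th percentile. All differences are in log2 units. The brightest probe stands for a gene. With 1 array per group there is no spread between replicates, no difference has a test, and the number of arrays limits the precision. Repeated spots of 1 probe on an array gave a technical SD of a difference between 0.09 and 0.12 at the factors' signals, which leaves out animals and hybridisations. Between 59.2% and 64% of spots were well above background per array. The wild-type spinal cord array lay on another slide than the other 3, so genotype cannot be told apart from slide in spinal cord, and the same holds for slide and tissue in wild type. Tissue labels were checked first: 8 of 8 cerebellar markers were above background on both brainstem/cerebellum arrays, and 10 of 10 spinal Hox genes on both spinal cord arrays. On the spinal cord arrays 6 of 8 cerebellar markers were also above background, with a median difference, spinal cord minus brainstem/cerebellum, of -4.75 in transgenic and -5.28 in wild-type mice. Of the Hox genes, 5 were above background in transgenic and 3 in wild-type brainstem/cerebellum, with medians of 5.38 in transgenic and 4.37 in wild type in the same direction of difference. All 10 factors had a probe well above background on all 4 arrays.

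In brainstem/cerebellum 8 of the 10 factors lay within 1.5-fold of their wild-type levels, and Nkx6-2 and Tcf7l2 lay just outside. None of the 10 was at least 2-fold higher, against 2.69% of 16886 genes, and none was at least 2-fold lower, against 0.296%. Their median difference, transgenic minus wild type, was 0.05, with 6 above 0 and 4 below, and that of all genes was -0.06. At 1.5-fold, 1 factor was higher (6.43% of all genes) and 1 lower (2.22%). The central 95% of all genes ran from -0.57 to 1.04, and of the factors Tcf7l2, at -0.61, lay outside it.

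Nkx6-2, a homeodomain repressor of differentiating oligodendrocytes, was the factor past 1.5-fold higher. Its level was 2.56 in transgenic and 1.96 in wild-type brainstem/cerebellum, a difference of 0.59 or 1.51-fold. Tcf7l2, the HMG box partner of beta-catenin in Wnt signalling and a marker of newly formed oligodendrocytes, was the factor past 1.5-fold lower. Its brightest probe stood at -0.07 in transgenic and 0.54 in wild-type brainstem/cerebellum, 1.53-fold lower. Olig1, a bHLH protein needed for repair of myelin lesions, was at 3.03 in transgenic and 3.36 in wild-type tissue, a difference of -0.32. Both Olig1 and Tcf7l2 were thus below wild type by more than the technical SD.

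The other 7 factors differed by less than 0.2 in this tissue. Olig2, the bHLH protein that specifies the lineage, was at -0.99 in transgenic and -0.93 in wild-type tissue. Sox10 stood at 2.20 in transgenic and 2.10 in wild type, and Myrf at -0.83 in transgenic and -0.79 in wild type. These 3 differences, -0.06, 0.09 and -0.04, were at or within about 1 technical SD. A dim second Myrf probe gave -0.70, but it was not well above background in transgenic brainstem/cerebellum. Nkx2-2 differed by 0.11, Zfp488, a zinc finger protein of oligodendrocytes, by 0.18, Sox8, a close relative of Sox10, by 0.19, and Sox6 by 0.00. The second Sox8 probe differed by -0.28, so the direction of Sox8 is not settled by its probes.

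**Figure D1:**
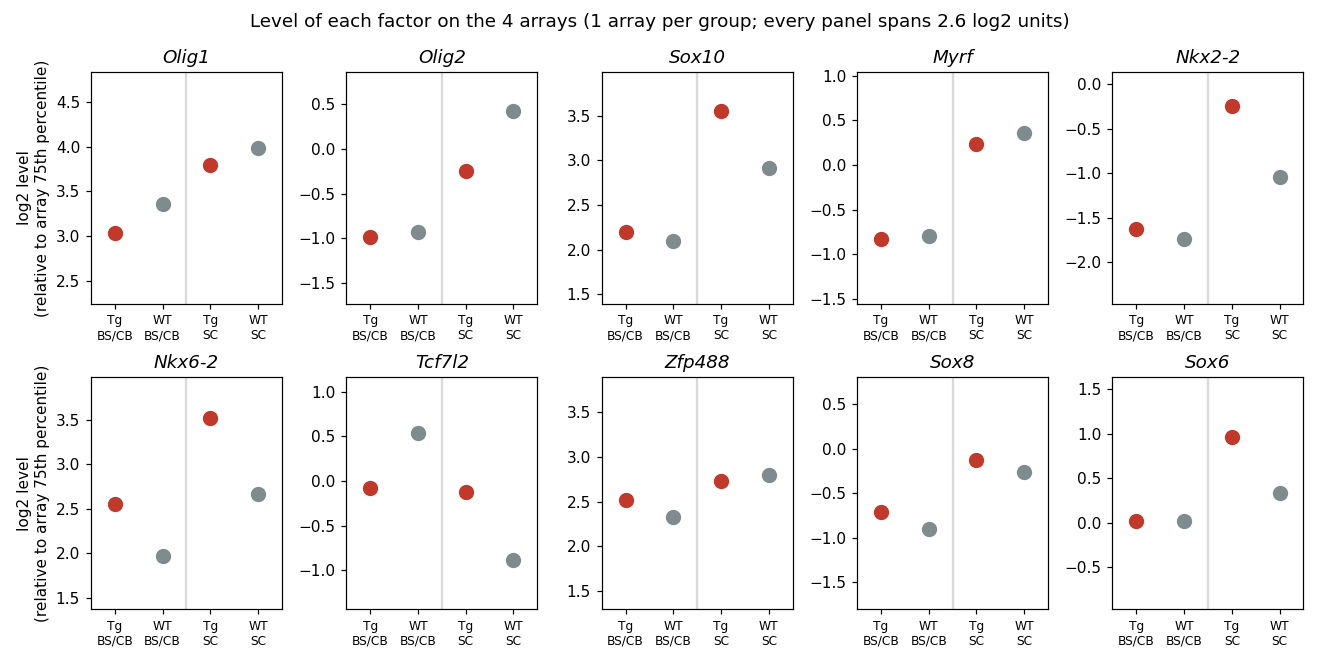
Level of each factor on the 4 arrays, with transgenic (Tg) left of wild type (WT) in brainstem/cerebellum (BS/CB) and spinal cord (SC). Each point is 1 array and the vertical axis is log2 signal relative to the 75th percentile of the array. Sox10, Nkx2-2, Nkx6-2, Sox8 and Sox6 stand highest in transgenic spinal cord, Olig1, Olig2, Myrf and Zfp488 in wild-type spinal cord.

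In spinal cord the factors split. Nkx6-2, Nkx2-2, Tcf7l2, Sox10 and Sox6 were higher in transgenic than in wild-type tissue by 0.63 to 0.85, Olig2 was lower by 0.67, and Olig1, Myrf, Zfp488 and Sox8 lay within 0.2 of wild type. None of the 10 was at least 2-fold higher, against 8.46% of 17180 genes, and none at least 2-fold lower, against 6.4%. At 1.5-fold 5 factors were higher, against 16.2% of all genes, and 1 was lower, against 17.7%. The median difference of the factors was 0.38 and that of all genes -0.05. Over all genes the differences in this tissue were wide, with the central 95% between -1.41 and 2.07, and each factor lay inside that range.

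Sox10 is the HMG box factor that is present throughout the lineage, and it switches on Myrf and myelin genes. Its spinal cord signal was 4876 in transgenic and 5167 in wild-type mice, and its level 3.56 in transgenic and 2.91 in wild type, because the 75th percentiles of the arrays lay at signals of 414 in transgenic and 686 in wild type. The difference of 0.64, or 1.56-fold, therefore rests on the scaling between arrays. Olig2 had signals of 348 in transgenic and 919 in wild-type spinal cord and a level of -0.25 in transgenic and 0.42 in wild type, 1.59-fold lower. The contrast between the pair within the arrays does not depend on a scaling factor: Sox10 minus Olig2 differed by 1.31 between transgenic and wild-type spinal cord, against 0.15 in brainstem/cerebellum. Olig1 lies beside Olig2 on chromosome 16, its probe 43269 bases away in mm9, and stood at 3.79 in transgenic and 3.98 in wild-type spinal cord, a difference of -0.19. The neighbours thus had the same sign, with the larger difference at Olig2.

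The homeodomain factors Nkx2-2 and Nkx6-2 had the largest positive differences. Nkx6-2 was at 3.51 in transgenic and 2.67 in wild-type spinal cord, 0.85 or 1.80-fold higher. Nkx2-2, which promotes the step from precursor to oligodendrocyte, was at -0.25 in transgenic and -1.05 in wild-type tissue at its brighter probe, 0.80 higher. Its other probe gave 0.13, so the size of the Nkx2-2 difference depends on the probe. Nkx6-2 was the factor higher than wild type by more than 0.5 in both tissues, and its difference was 0.26 larger in spinal cord. That change between tissues was not tested.

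Sox6 and Sox8 belong to different SOX groups. Sox6, which holds precursors back from terminal differentiation and is also made by some neurons, was at 0.96 in transgenic and 0.34 in wild-type spinal cord, 0.63 higher. A second probe gave 0.69, and the remaining 2 of its 4 probes were not well above background on any array. Sox8 was at -0.13 in transgenic and -0.26 in wild-type tissue, a difference of 0.13, with -0.05 at its other probe. Myrf stood at 0.24 in transgenic and 0.36 in wild type, a difference of -0.13, and Zfp488 at 2.73 in transgenic and 2.80 in wild type, a difference of -0.07. A dim second Myrf probe gave 0.44, so the direction of Myrf in spinal cord is not settled by its probes. Zfp488 has 1 probe, and whether that probe also binds RNA of other genes was not tested in either tissue.

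**Figure D2:**
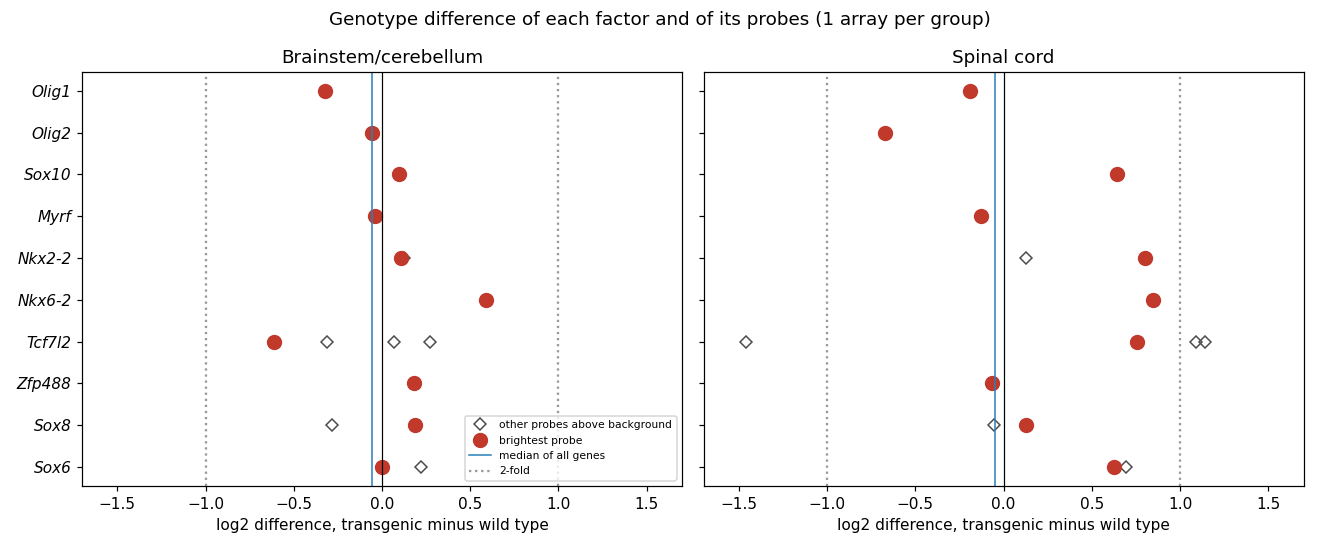
Difference between genotypes (log2, transgenic minus wild type) for each factor in brainstem/cerebellum and spinal cord. Filled circles are the brightest probe, open diamonds the other probes above background on all 4 arrays, the blue line the median of all genes and dotted lines 2-fold. In spinal cord 5 factors lie between 0.63 and 0.85, and 1 Tcf7l2 probe lies at -1.46.

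Tcf7l2 was the factor past 1.5-fold in opposite directions in the tissues, and the one whose probes disagreed most. At probe 4, the brightest, the level was -0.12 in transgenic and -0.88 in wild-type spinal cord, a difference of 0.75, against -0.61 in brainstem/cerebellum. Probes 2 and 3, printed above, were higher in transgenic spinal cord too, by 1.09 and 1.14. Probe 1, at the 5′ end, had a spinal cord signal of 15.9 in transgenic and 72.4 in wild-type mice, a difference of -1.46. In brainstem/cerebellum the differences from probe 1 to probe 4 were 0.27, 0.07, -0.31 and -0.61. All 4 probes were above background on all 4 arrays, but probes 1 to 3 were dim, where the technical SD of a difference was 0.19 to 0.30. With the mean of all 4 probes the Tcf7l2 difference was 0.38 in spinal cord and -0.15 in brainstem/cerebellum. Isoforms were not resolved, and the probes share the same RNA, so they are not replicates.

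**Figure D3:**
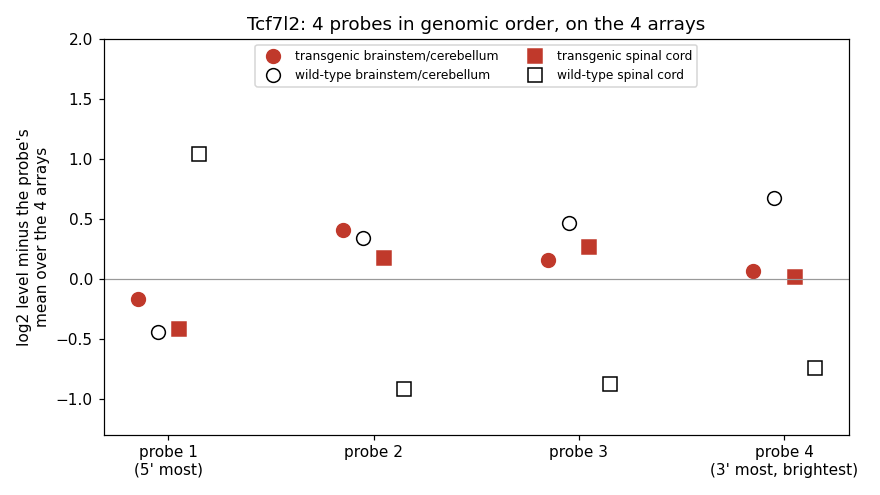
Level of each of the 4 Tcf7l2 probes on the 4 arrays, in genomic order, as log2 minus that probe's mean over the arrays. Filled red symbols are transgenic and open symbols wild type, circles brainstem/cerebellum and squares spinal cord. The wild-type spinal cord array is the highest of the 4 at probe 1 and the lowest at probes 2, 3 and 4.

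Scaling moved the spinal cord values together. Under the 75th percentile the 7 spike-in control probes differed by a median of 0.42 between transgenic and wild-type spinal cord, with a range of -0.17 to 0.66, against -0.06 in brainstem/cerebellum. When the arrays were scaled on the spike-ins, the median of all genes in spinal cord was -0.40 and the median of the factors 0.021. This scaling shifts all genes of an array alike, so the distance of 0.42 between both medians cannot change. On that scale Olig2 was at -1.03, past 2-fold, Olig1 at -0.55, Myrf at -0.48 and Zfp488 at -0.42, while Nkx6-2 was at 0.49, Nkx2-2 at 0.44, Tcf7l2 at 0.40, Sox10 at 0.29 and Sox6 at 0.27. The sign of Sox8 turned, to -0.23. The positive sign of Nkx6-2, Nkx2-2, Sox10, Tcf7l2 and Sox6 and the negative sign of Olig2, Olig1 and Zfp488 in spinal cord were the same under all 7 other ways of deriving the values, and Myrf turned under 1, the mean of its probes, to 0.16. Not all of these ways could turn a sign. Keeping outlier-flagged spots touched no factor, and the mean of probes changes nothing for a factor with 1 probe. The authors' values followed a quantile normalization, so they largely repeat that alternative.

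**Figure D4:**
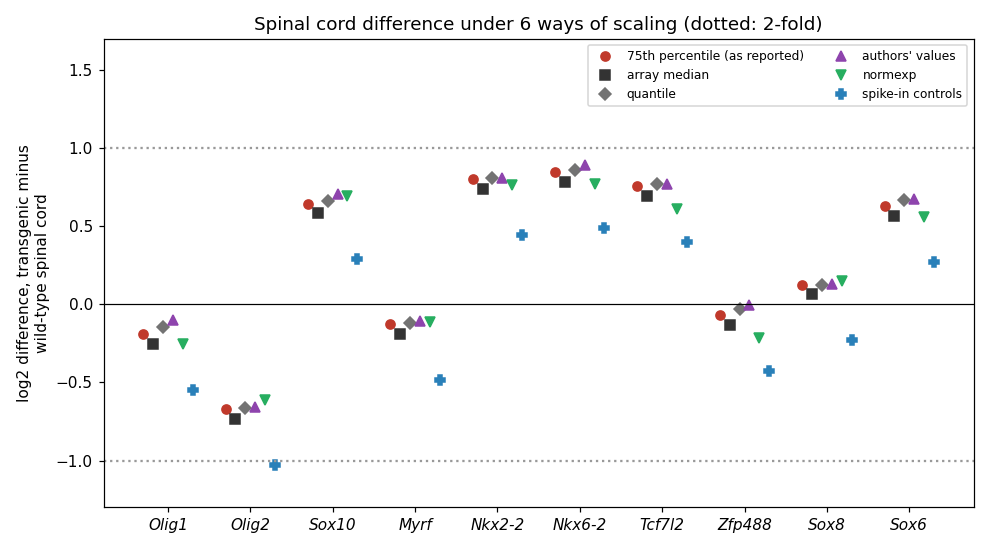
Difference of each factor between transgenic and wild-type spinal cord (log2) under 6 ways of scaling the arrays. Each symbol is 1 way, and dotted lines mark 2-fold. Spike-in scaling lowers every factor, and puts Olig2 at -1.03 and Sox8 at -0.23.

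Between the tissues, 9 of the 10 factors were higher in spinal cord than in brainstem/cerebellum in both genotypes, against 48.7% of genes in each. Tcf7l2, at its brightest probe, was lower in wild type and differed by less than the technical SD in transgenic mice. In transgenic mice, where both arrays lay on 1 slide, the median difference of the factors, spinal cord minus brainstem/cerebellum, was 0.85 and that of all genes -0.02. Nkx2-2 (1.38), Sox10 (1.36) and Myrf (1.07) were at least 2-fold higher, 3 of 10 against 10% of 16989 genes, and none was at least 2-fold lower, against 6.24%. Nkx2-2 was at 0.96 with the mean of its probes, the other of which gave 0.54, and Myrf was at 0.72 with spike-in scaling and also under 2-fold with normexp background correction. With the mean of probes the 3 factors past 2-fold were Sox10, Myrf and Sox6 (1.01). The 2 Sox6 probes above background gave 0.95 and 0.99, each under 2-fold, and the mean includes 2 probes not above background on any array. In wild-type mice the median of the factors was 0.66 and that of all genes -0.01. There Olig2 (1.35) and Myrf (1.16) were at least 2-fold higher, 2 of 10 against 6.77% of 16841 genes, and Tcf7l2 (-1.42) was lower, 1 of 10 against 4.25%. At 1.5-fold 7 factors were higher in transgenic mice, against 18.7% of genes, and 7 in wild-type mice, against 15.9%. At that threshold none was lower in transgenic mice, against 14.8%, and 1 in wild-type mice, against 11.3%. The spike-ins differed by 0.37 between the tissues in transgenic mice and by -0.20 in wild type, and with that scaling the sign of Zfp488 turned in transgenic mice, to -0.14.

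At its brighter probe Myrf had levels of 0.24 in spinal cord and -0.83 in brainstem/cerebellum of transgenic mice and 0.36 in spinal cord and -0.79 in brainstem/cerebellum of wild-type mice, differences of 1.07 in transgenic and 1.16 in wild type. With the mean of both Myrf probes these were 1.41 in transgenic and 0.88 in wild type, where the dim probe was not above background in transgenic brainstem/cerebellum. The brighter Myrf probe is annotated to an Ensembl transcript and the dim one to a RefSeq transcript. The brighter probe has a stop codon in every reading frame, so it cannot lie wholly in coding sequence, while the dim probe has 1 open frame. At the dim probe alone the wild-type difference was 0.61, under 2-fold. Whether the brighter probe reports the coding mRNA was not tested. Tcf7l2 differed little between the tissues in transgenic mice, at -0.05, and by -1.42 in wild type. At its probe 1 the wild-type difference was 1.48, in the opposite direction. Olig2 differed by 0.74 in transgenic and 1.35 in wild-type mice, and Sox10 by 1.36 in transgenic and 0.81 in wild-type mice. These comparisons share arrays with the comparisons of genotypes.

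The genes around the network were read from lists of cofactors, signals and targets. Of 34 lineage cofactors, all above background, none passed 2-fold in brainstem/cerebellum, against 2.69% of all genes higher and 0.296% lower. In spinal cord 5 were at least 2-fold higher, against 8.46% of all genes, and 3 lower, against 6.4%, with a median of 0.30. Sox3 and Sox4, SOX factors of neural progenitors, were 1.83 and 1.63 higher in transgenic spinal cord, and Sox17 was at -2.63. Sox17 stood at 1.09 on the wild-type spinal cord array, which lay on its own slide, and between -1.54 and -0.81 on the other arrays. Sox17 is also a factor of endothelial cells. The endothelial markers had a median of -0.10 in spinal cord, with a range of -0.70 to 0.65 and 0 of 6 past 2-fold. The part of those cells in the Sox17 difference was not tested. In brainstem/cerebellum Sox3 differed by -0.27, Sox4 by 0.06 and Sox17 by 0.41.

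Of 27 signals and inhibitors of differentiation, 24 were above background on both spinal cord arrays, with a median of -0.29. Of these, 1 was at least 2-fold higher and 3 lower, against 8.46% and 6.4% of all genes. Notch1, a receptor that keeps precursors undifferentiated, was 1.04 higher in transgenic spinal cord. Shh, the secreted signal that induces Olig2 in the embryo, was at -1.33, and Gli1, a transcriptional target of that pathway, at -2.41. Tcf7l1, a relative of Tcf7l2, was at -1.29. Among the 3 genes above background on 1 of the spinal cord arrays, Wif1, a secreted Wnt inhibitor, was at least 5.59-fold higher in transgenic tissue. Axin2, a Wnt target, was at least 5.28-fold lower and Hes1 at least 1.82-fold lower. Wif1, Axin2 and Hes1 were named after their values were seen. Hes1 was not above background on any of the 3 arrays that share a slide. Other Wnt genes of the list went both ways in spinal cord, with Apcdd1 at 0.49, Tcf7 at 0.35, Nkd1 at -0.20 and Lef1 at -0.65. Whether Wnt signalling differed was not tested. In brainstem/cerebellum none of 25 passed 2-fold, against 2.69% of all genes higher and 0.296% lower, and the median was -0.02.

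Of 22 genes known as targets of Myrf, Sox10 and Olig2 in myelination, which include Nkx6-2, none passed 2-fold in brainstem/cerebellum, where the median was 0.05. In spinal cord the median was 0.24, and -0.12 on the spike-in scale. Of the 22, 2 passed 2-fold higher there and none 2-fold lower, against 8.46% and 6.4% of all genes. Those 2 were Cldn11, the tight junction protein of myelin, at 1.21, and Nfasc, a protein of the node and paranode, at 1.16, whose other probes ran between -1.71 and 1.13. Sirt2, a deacetylase of myelin, was at 0.92. Mog and Mag, myelin glycoproteins chosen after their values were seen, differed by 0.08 and 0.18 in spinal cord, with other Mog probes between -1.05 and 0.16. Between the tissues, 11 of the 22 targets were at least 2-fold higher in spinal cord in transgenic mice, against 10% of all genes. In wild type 10 were, against 6.77%. The medians were 0.99 and 0.99, and none was 2-fold lower, against 6.24% in transgenic and 4.25% in wild-type mice.

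Markers of the lineage's stages were read beside the factors. All 8 precursor markers were well above background on every array. Of these, 5 of 8 passed 2-fold higher and none 2-fold lower in spinal cord, against 8.46% and 6.4% of all genes. The precursor markers had a median of 1.26 there, with a range of -0.22 to 2.36. Their summed linear level was 20.5 in transgenic and 12.3 in wild type. In brainstem/cerebellum 0 of 8 passed 2-fold, with a median of 0.30 and a sum of 15.6 in transgenic and 15.5 in wild type. Among newly formed oligodendrocyte markers, which include Tcf7l2, 2 of 8 were higher in spinal cord and none 2-fold lower, with a median of 0.52. Their sum was 193.9 in transgenic and 188.8 in wild type. Most of that sum was Bcas1, at a level of 7.39 in transgenic and 7.46 in wild type, so it says little of the other markers. All mature markers, and Bcas1 of the newly formed ones, are also among the targets above, so they are not a separate reading. Of the mature markers 1 of 8, Cldn11, was higher, with a median of 0.13 and a sum of 223.2 in transgenic and 200.9 in wild type.

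Other cell types also differed in spinal cord, where 8.46% of all genes were at least 2-fold higher and 6.4% lower. In brainstem/cerebellum these shares were 2.69% and 0.296%. Of the microglial markers 5 of 8 were at least 2-fold higher, with a sum of 207.3 in transgenic and 89.6 in wild type, and in brainstem/cerebellum 2 of 8, with a sum of 82.0 in transgenic and 52.2 in wild type. All 4 cycling cell markers that both spinal cord arrays detected were higher, with a median of 3.36, and the other 2 were higher by a bound. In brainstem/cerebellum, Mki67 was at least 8.88-fold, Top2a at least 6.96-fold and Ccnb1 at least 3.64-fold higher in transgenic tissue, genes named after their values were seen. Schwann cells, the myelin-forming cells of nerve roots, also make Sox10, and their markers had a sum of 38.1 in transgenic and 44.2 in wild-type spinal cord, against 11.0 in transgenic and 9.08 in wild-type brainstem/cerebellum. Of the 6 Schwann markers detected on both, Prx was at -1.74 and Egr2 at 2.09. Neuronal markers had a median of -0.50 in spinal cord with 1 of 8 lower, and astrocyte markers a median of 0.00 with 1 of 8 higher and 3 lower. Most of these astrocyte calls did not hold at other probes above background. Gfap (1.08) had 0.40 there, Gja1 (-1.81) had -0.43 to -0.41 and Fgfr3 (-1.14) had -0.68, while Gjb6 (-1.19) had -1.11. The part of these cell types in the differences of the factors was not tested.

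**Figure D5:**
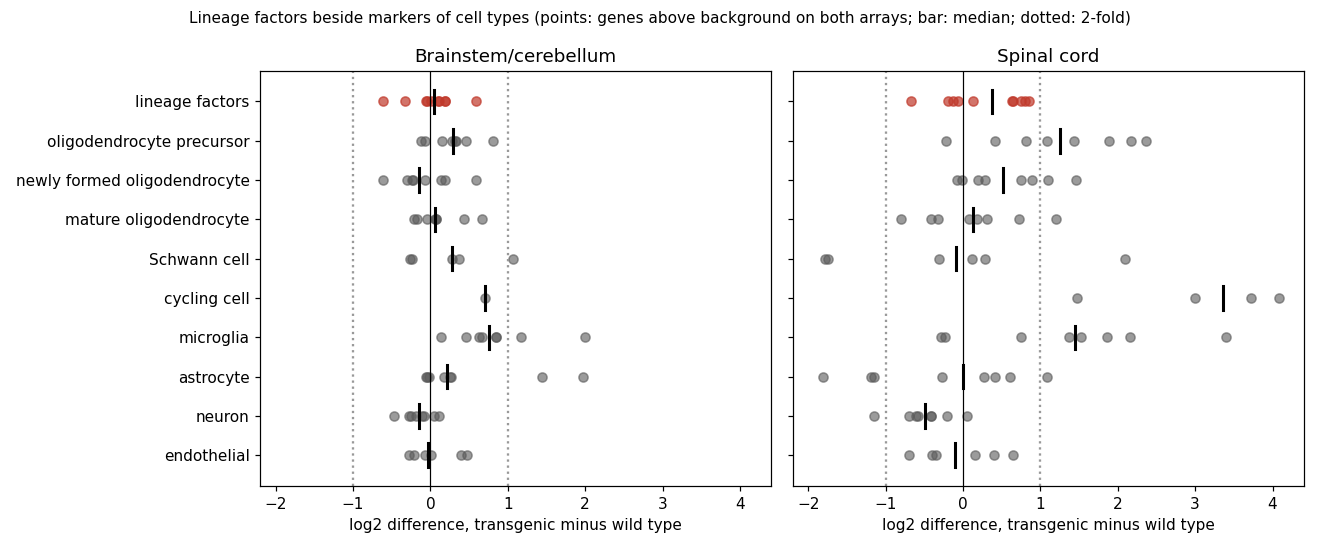
Difference between genotypes (log2, transgenic minus wild type) of the 10 factors, in red, beside markers of 9 cell types or states, in grey, in brainstem/cerebellum and spinal cord. Points are genes above background on both arrays, bars medians and dotted lines 2-fold. In spinal cord the median is 0.38 for the factors, 1.26 for precursor markers, 0.13 for mature oligodendrocyte markers and 3.36 for cycling cell markers.

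For the 5 factors with the widest span over the arrays, the most similar genes were sought among 16430 genes above background on all 4 arrays, by Euclidean distance between log2 levels centred on each gene's mean over the 4 arrays. Nkx2-2 was nearest to Nras (0.03), Gpr137b (0.03) and Kdelr3 (0.07), and Sox10 to Nipsnap3b (0.05), Epb41l2 (0.07) and Srpk3 (0.08). Nkx6-2 was nearest to Depp1 (0.07), Mrc1 (0.08) and Samd9l (0.08), and Olig2 to Zdhhc15 (0.07), Cyp39a1 (0.08) and Hoxb2 (0.11). The nearest genes to Tcf7l2 lay farther off, Aff2 and Kcnj4 at 0.21 and Tmem200a at 0.24. With 4 arrays many genes have a like pattern, and no other of the 10 factors was among these genes.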

How the data were processed

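Total RNA of 4 samples was amplified, labelled with Cy3 and hybridised to Agilent arrays, 1 per group, per the labels' protocols. Groups came from the sample titles, genotype and tissue labels. The deposited scanner files hold spot intensity on a linear scale, background-subtracted and detrended within each array per the file headers, from Agilent Feature Extraction 10.7.1.1 per the file headers (9.5.1.1 per the submitters' processing notes). Surrogates stand in for low values and the arrays were not scaled to each other, per the file headers. The authors' processed intensity values in the series table had a median of 30.4 on every array and followed a quantile normalization of the scanner signals with a Pearson correlation of at least 0.99999. How they were normalized is not given in the sources used, and they served as an alternative.

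Here, the log2 processed signal was centred on the 75th percentile of its array, without control spots and outlier-flagged spots (63 to 134 per array). Spots of a probe were averaged and the probe with the highest mean stood for a gene. Of 56605 probes, 32994 were named by accession, 10224 by symbol, 520 by synonym and 2408 by the file's symbol, and 10459 had no name. Counts cover genes well above background on both arrays compared. Their threshold was 2-fold, with 1.5-fold and 3-fold beside it. A gene above background on 1 array has a bound, the bright value against the higher of its own dim value and the lowest signal well above background there. A summed level adds linear levels, each relative to the 75th percentile. Technical error came from probes spotted repeatedly. Named were all members, up to 4 genes per companion list with the largest difference between genotypes, and the 3 genes nearest to each of 5 members. Some genes that this rule names are not reported here. Alternatives were the array median, quantile normalization, spike-in scaling, normexp with an offset of 50 (limma 3.58.1 in R 4.3.3), the authors' values, the mean of all probes, outliers kept and other filters. The calculations ran in Python 3.11.15 and were tested on simulated data. The members and lists were chosen with earlier results of these data known.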

Additional observations from a re-analysis of the deposited data

Results flagged for a closer look

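Tcf7l2 differed between genotypes in opposite directions in the tissues, at -0.61 in brainstem/cerebellum and 0.75 in spinal cord (log2, transgenic minus wild type, brightest probe, 1 array per group). The change between the tissues was 1.36, and it was not tested. The wild-type spinal cord array lay on another slide than the other 3.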

How the results depend on the processing

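With 1 array per group no result has a replicate error, the slide cannot be told apart from genotype in spinal cord, and signal over background limits the dim Tcf7l2 and Sox6 probes. No paired analysis was possible because each group holds 1 array. Keeping outlier-flagged spots or requiring signal above background on all 4 arrays could not change a median or count of the factors, since no factor was touched by either. In all, 19 recomputed medians and counts moved.

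The factors' median difference between genotypes in brainstem/cerebellum was -0.13 with the array median. In spinal cord it was 0.021 with spike-in scaling and 0.27 with the mean of all probes. Spinal cord minus brainstem/cerebellum, it was 0.50 with spike-in scaling in transgenic mice, and in wild type 0.55 with the array median and 0.53 as a mean over the factors. Spike-in scaling put 1 factor, Olig2, past 2-fold lower in spinal cord. At 1.5-fold in brainstem/cerebellum 1 factor was higher and 1 lower, and in spinal cord 5 higher and 1 lower. Between the tissues, 7 were higher at 1.5-fold in each genotype and 0 at 3-fold. In wild type the count past 2-fold higher was 1 with normexp and 1 with the mean of all probes, and the count lower was 0 with the mean of all probes and 0 at 3-fold. Signs of factors in brainstem/cerebellum turned under at least 1 alternative for Sox10, Myrf, Nkx2-2, Sox8 and Sox6. The cause was not tested.

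Over all genes, normexp gave 185 higher and 14 lower in brainstem/cerebellum, against 454 and 50 as reported, and 1040 and 572 in spinal cord, against 1454 and 1100. With the array median the brainstem/cerebellum count lower was 103 and the median of all genes -0.24, and 75.9% of calls were higher, against 90.1%. Quantile normalization and the authors' values each gave 85 lower there. Spike-in scaling gave 911 higher and 2647 lower in spinal cord, 25.6% higher against 56.9%, and 987 and 2185 between the tissues in transgenic mice, 31.1% against 61.6%. Normexp gave 1019 and 633 there, against 1703 and 1060, and 535 and 468 in wild type, against 1140 and 715, while the array median gave 916 and 892 in wild type, 50.7% against 61.5%. Normexp's share higher there was 53.3%. The factors' median minus that of all genes in spinal cord was 0.42 as reported, 0.33 with normexp and 0.28 with the mean of all probes.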

Other observations

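Markers of serotonin neurons, which descend from progenitors that make Nkx2-2, were read beside that factor. All 3 were above background in brainstem/cerebellum, where 2 of 3 were at least 2-fold lower in transgenic tissue, with a median of -1.01 (log2) and a summed level of 1.12 in transgenic and 2.51 in wild type, while Nkx2-2 differed by 0.11. Among astrocyte markers 2 of 8 were at least 2-fold higher in transgenic brainstem/cerebellum, with a median of 0.21. They were Gja1 (1.97), whose other probes above background ran between -0.26 and 0.52, and Gfap (1.44), with 0.82 at its other probe. Of all genes 2.69% were at least 2-fold higher and 0.296% lower in that tissue. Lineage cofactors were at least 2-fold higher in spinal cord than in brainstem/cerebellum for 9 of 34 genes in transgenic mice, against 10% of all genes. In wild-type mice 7 of 34 were, against 6.77%. Cofactors were lower for 3 of 34 in each, against 6.24% in transgenic and 4.25% in wild-type mice.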
